A study of Mus musculus with 6 samples.

Results

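The genes of MHC class I antigen presentation and of the immunoproteasome were examined in MLO-Y4 cells after low-intensity pulsed ultrasound (LIPUS). The 10 genes, Psmb8, Psmb9, Psmb10, Tap1, Tap2, Tapbp, B2m, H2-K1, H2-D1 and Nlrc5, were found by symbol among the 53797 genes of the deposited comparison, each in a single row. MLO-Y4 is an immortalised osteocyte-like mouse cell line, here a single line with no genetic change between the groups. The LIPUS group was 3 cultures stimulated for 20 min at 1.5 MHz and 30 mW/cm2, and the Control group was 3 untreated cultures. RNA was extracted 30 min after the stimulation, according to the methods. Both groups grew on collagen in alpha-MEM with fetal bovine serum, and treated and untreated wells shared a plate. The study calls the 3 RNA samples of a group independent, while its methods except the RNA-seq from the experiments that were repeated, so how far the cultures were separate is not settled. The study also describes a single control culture that stood apart from the other controls and proposes that stimulation may have leaked into control cells. This was not tested here. The table holds a single pooled value per group in FPKM (fragments per kilobase of exon, scaled to the mapped reads), so no result could be given without that culture, no SD exists and no test was made. Every difference below is therefore a difference between pooled values with no replicate check.

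Class I molecules display peptides from inside the cell on its surface for CD8 T cells. The peptides are cut by the proteasome, in which interferon-inducible immunosubunits can take the place of the constitutive catalytic subunits, are carried into the endoplasmic reticulum by the TAP transporter, and are loaded with the help of tapasin onto a heavy chain bound to beta-2-microglobulin. Nlrc5 is the transactivator of class I genes, and most of the pathway is induced by interferons.

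The chains of the class I molecule were all higher in the pooled LIPUS value, by 0.31 to 0.49 on the log2 scale (LIPUS over Control). The TAP subunits and tapasin were all lower, by 0.12 to 0.65 on the log2 scale. The immunosubunits differed among themselves, with Psmb10 lower, Psmb9 higher and Psmb8 nearly level. Of the 10 genes, 5 were lower and 5 higher by any amount, against 49.2% lower and 50.8% higher of all genes with status OK, with a median log2 ratio of 0.04, against 0.00425 over the 8145 genes that carry the status OK, meaning that Cuffdiff held them abundant enough to compare. All 10 genes have this status.

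Of the 10 genes, 7 lay outside the quartiles of all genes with status OK, at -0.17 and 0.18 on the log2 scale. By definition, as many of all these genes lie outside the quartiles as between them. Only Tapbp differed by at least 1.5-fold. That is 1 of 10 genes lower, while 4.71% of all genes with status OK were lower by this much, and 0 of 10 higher, against 4.7% of all. With each group divided by its summed FPKM, 2 of 10 were lower (Psmb10 joined Tapbp), against 5.7% of all, and 0 higher, against 4.05% of all. At a limit of 25% of the smaller value, 3 genes were lower (Tapbp, Psmb10 and Tap2), against 13.4% of all, and 3 were higher (H2-D1, H2-K1 and Psmb9), against 13.6% of all. Psmb9 (1.251-fold) and H2-K1 (1.255-fold) lie just inside that limit and B2m (1.236-fold) just outside it. The central 95% of all genes with status OK ran from -0.75 to 0.77 on the log2 scale, and all 10 genes lay inside it.

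**Figure D1:**
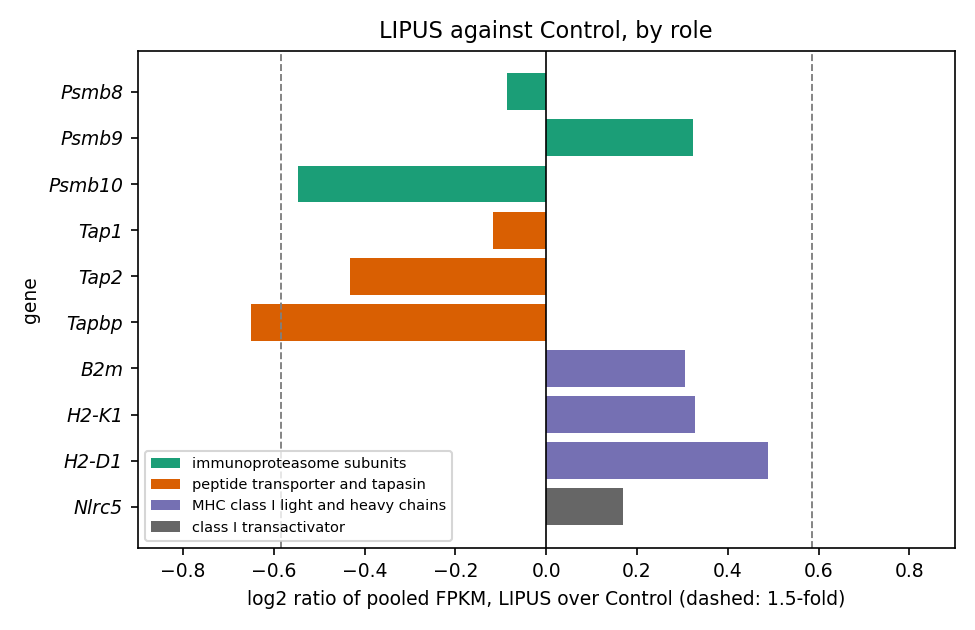
Log2 ratio of the pooled FPKM, LIPUS over Control, for each of the 10 genes, with bars coloured by role and dashed lines at 1.5-fold. Tapbp (-0.65) alone passes a dashed line, and the bars of B2m, H2-K1 and H2-D1 all point to higher values with LIPUS.

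Upstream sequences are shown for the class I chains, for Psmb9 and Tap1, which share a start region and differed in direction, and for Psmb8, the only one of the 8 genes searched with a match to a further motif, from RefSeq on GRCm38.p6. The table of sequences held 8 of the 10 genes, and Tap2 and Nlrc5 were not among them. H2-K1 and H2-D1, both of chromosome 17, share an identical run of 47 bases upstream of their RefSeq starts. It is printed in capitals, within chr17:34000432-34000498 on the minus strand for H2-K1 and chr17:35262883-35262949 on the plus strand for H2-D1.
H2-K1: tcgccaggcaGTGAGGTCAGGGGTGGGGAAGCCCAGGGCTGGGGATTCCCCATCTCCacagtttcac
H2-D1: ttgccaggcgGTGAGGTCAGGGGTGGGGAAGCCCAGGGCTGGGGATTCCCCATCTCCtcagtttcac
The 250 bases before the start of B2m, chr2:122147437-122147686 on the plus strand, hold letters like those of an interferon-stimulated response element (ISRE) and of a kappa-B site, both in capitals.
B2m: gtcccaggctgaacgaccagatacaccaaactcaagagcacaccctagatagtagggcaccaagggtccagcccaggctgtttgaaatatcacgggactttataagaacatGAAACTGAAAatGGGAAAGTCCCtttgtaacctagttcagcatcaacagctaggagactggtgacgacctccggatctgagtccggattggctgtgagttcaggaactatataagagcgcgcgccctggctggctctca
The 250 bases before the RefSeq start of Psmb8, chr17:34197945-34198194 on the plus strand, hold letters like those of a gamma-activated site (GAS), in capitals.
Psmb8: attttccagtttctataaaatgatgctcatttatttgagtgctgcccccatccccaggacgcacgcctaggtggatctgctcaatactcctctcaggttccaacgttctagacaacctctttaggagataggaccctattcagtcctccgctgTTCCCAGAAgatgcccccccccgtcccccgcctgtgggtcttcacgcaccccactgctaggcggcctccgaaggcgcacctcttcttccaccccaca
Psmb9 and Tap1 point away from each other, and 225 bases between their RefSeq starts, chr17:34187331-34187555, lie upstream of both. They are printed on the strand of Tap1, with the 12 CpG dinucleotides in capitals.
Psmb9 and Tap1: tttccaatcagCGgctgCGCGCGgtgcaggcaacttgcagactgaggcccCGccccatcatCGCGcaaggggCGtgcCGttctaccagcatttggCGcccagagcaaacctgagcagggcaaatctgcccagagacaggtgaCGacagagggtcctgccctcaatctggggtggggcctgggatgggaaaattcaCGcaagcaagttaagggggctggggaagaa

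The ISRE-like letters searched were GAAA, then 2 bases of any kind, then GAAA, on both strands. Among windows of 300 bases around the start, they occurred in B2m alone of the 8 genes, at -139, and in 3.99% of the 27025 genes with a window. The GAS-like letters, TTCNNNGAA, occurred in Psmb8 alone, at -97, against 9.55% of all. The kappa-B-like letters (GGGA, then any 4 bases, then CC) occurred in B2m, H2-K1 and H2-D1, 3 of the 8 genes, against 22.9% of all and 30.6% of the genes with status OK. In H2-K1 and H2-D1 this match lies inside the shared run, so it is the same sequence in both. A match of letters is a description of the sequence and not a bound site. For 4 of the 8 genes the RefSeq start lies well inside the gene as GENCODE M21 gives it, and so does the window searched. The distance downstream of the GENCODE start is 364 bases for H2-D1, 434 for Psmb9, 474 for Psmb8 and 3579 for Tapbp.

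The genes spanned a wide range of levels. B2m, the invariant light chain, was 208 times Nlrc5 in the Control group on the FPKM scale. It ranked 9th of all listed genes in the Control group and 6th in the LIPUS group. H2-K1 ranked 72nd and 53rd, and H2-D1 93rd and 58th, so that these 3 genes were among the 100 most abundant in both groups. Below them the order changed between groups. Tapbp stood above Psmb8 in the Control group and below it in the LIPUS group, and Psmb10 and Tap2 both stood above Psmb9 in the Control group and below it in the LIPUS group. Whether neighbours in this order differ beyond the spread between cultures cannot be read from pooled values.

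**Figure D2:**
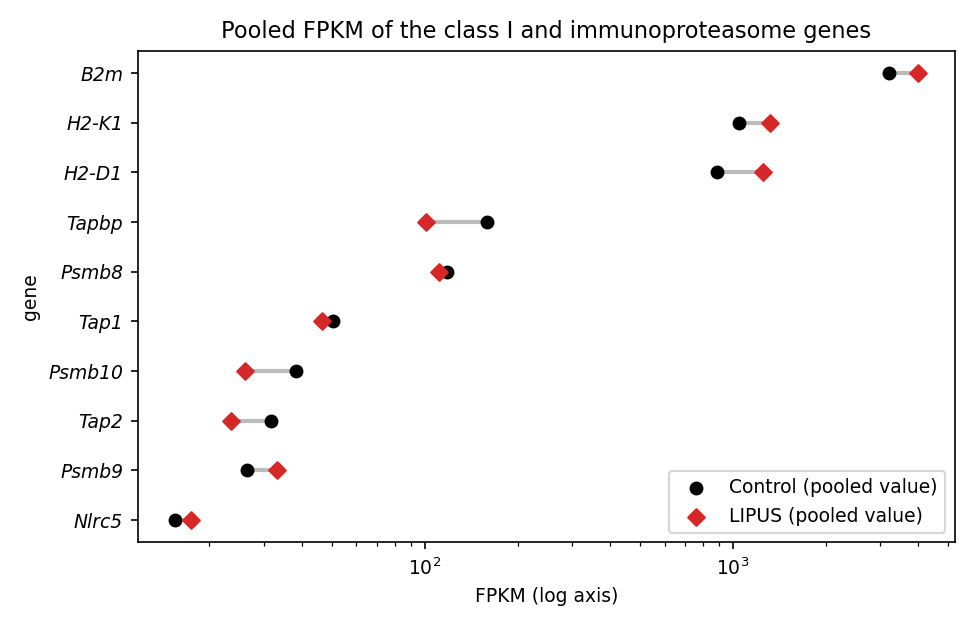
Pooled FPKM of each gene on a log axis, with black circles for Control and red diamonds for LIPUS, ordered by the Control level. B2m leads at 3218 and 3977 FPKM and Nlrc5 is last at 15.4 and 17.4 FPKM, and the largest gap between the symbols is that of Tapbp.

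B2m (ENSMUSG00000060802, chromosome 2, 122147686 to 122153083, plus strand) had 3218 FPKM in the Control group and 3977 FPKM in the LIPUS group, a log2 ratio of 0.31. H2-K1 (ENSMUSG00000061232, chromosome 17, 33996017 to 34000347, minus strand), a classical heavy chain, had 1048 and 1316 FPKM, a log2 ratio of 0.33. H2-D1 (ENSMUSG00000073411, chromosome 17, 35262730 to 35267499, plus strand), the other classical heavy chain listed, had 889 and 1248 FPKM. Its log2 ratio of 0.49 was the highest of the 10 genes, and 6.97% of all genes with status OK had one as high. The heavy chains came closer to each other in level, as H2-K1 per H2-D1 was 1.18 in the Control group and 1.05 in the LIPUS group. B2m per summed heavy chains was 1.66 and 1.55.

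The heavy chains belong to a family with near copies, and reads can match several members. Of all 100-base windows of the H2-K1 transcripts in GENCODE M21, 0.957% also occur in another gene, and of those of H2-D1, 3.59% do. H2-Q10 and H2-Q1 were the genes that shared most with H2-K1 and H2-D1. For B2m the share was 0%. These shares refer to the reference genome, while the class I alleles of MLO-Y4 are not given in the sources used here, and how far the cells' own sequence differs from the reference was not tested.

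Tapbp (ENSMUSG00000024308, chromosome 17, 33915899 to 33929292, plus strand) encodes tapasin, which bridges the TAP transporter and the empty class I molecule. It had 159 FPKM in the Control group and 101 FPKM in the LIPUS group, 1.57-fold lower with LIPUS, and 3.74% of all genes with status OK had a log2 ratio as low as its -0.65. The heavy chains were higher and tapasin lower. The summed heavy chains per Tapbp went from 12.2 in the Control group to 25.3 in the LIPUS group on the FPKM scale. This ratio was not planned and sets the genes with the highest log2 ratios against the gene with the lowest. Its rise follows from those values and adds nothing to them. Tap2 (ENSMUSG00000024339, chromosome 17, 34203527 to 34216321, plus strand) had 31.6 and 23.4 FPKM, a log2 ratio of -0.43. Tap1 (ENSMUSG00000037321, chromosome 17, 34187553 to 34197225, plus strand), its partner in the heterodimer, had 50.5 and 46.5 FPKM, a log2 ratio of -0.12. The proportion of Tap1 to Tap2 was 1.60 in the Control group and 1.99 in the LIPUS group.

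Psmb8 (ENSMUSG00000024338, chromosome 17, 34197721 to 34201454, plus strand) encodes the immunosubunit beta5i, which replaces Psmb5. It was the most abundant of the 3 immunosubunits, with 118 FPKM in the Control group and 111 FPKM in the LIPUS group, a log2 ratio of -0.09. Psmb10 (ENSMUSG00000031897, chromosome 8, 105935735 to 105938444, minus strand), beta2i, which replaces Psmb7, had 38.1 and 26.1 FPKM. It was 1.46-fold lower with LIPUS, a log2 ratio of -0.55, the lowest after Tapbp. Psmb9 (ENSMUSG00000096727, chromosome 17, 34181987 to 34187764, minus strand), beta1i, which replaces Psmb6, had 26.5 and 33.2 FPKM, a log2 ratio of 0.32.

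Set against their constitutive counterparts, the immunosubunits gave different proportions in each pair. These are proportions of RNA and not of subunits built into proteasomes. Psmb8 per Psmb5 was 1.46 in the Control group and 1.03 in the LIPUS group, and Psmb5 itself had 80.5 and 107 FPKM (log2 ratio 0.41). Of the Psmb5 windows, 22.2% also occur in other genes, mostly in the gene model Gm3375, so its value is uncertain. Nek6, on the opposite strand, covers 11.8% of the exonic bases of Psmb7. It had 23.4 FPKM in the Control group and 30.4 FPKM in the LIPUS group. Psmb10 per Psmb7 was 0.322 and 0.212, with Psmb7 at 119 and 123 FPKM. Psmb9 per Psmb6 was 0.118 and 0.136, with Psmb6 at 225 and 244 FPKM. Psmb9 was thus the scarcest relative to its counterpart in both groups. Summed over the 3 pairs, immunosubunits per constitutive counterpart were 0.430 in the Control group and 0.359 in the LIPUS group.

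**Figure D3:**
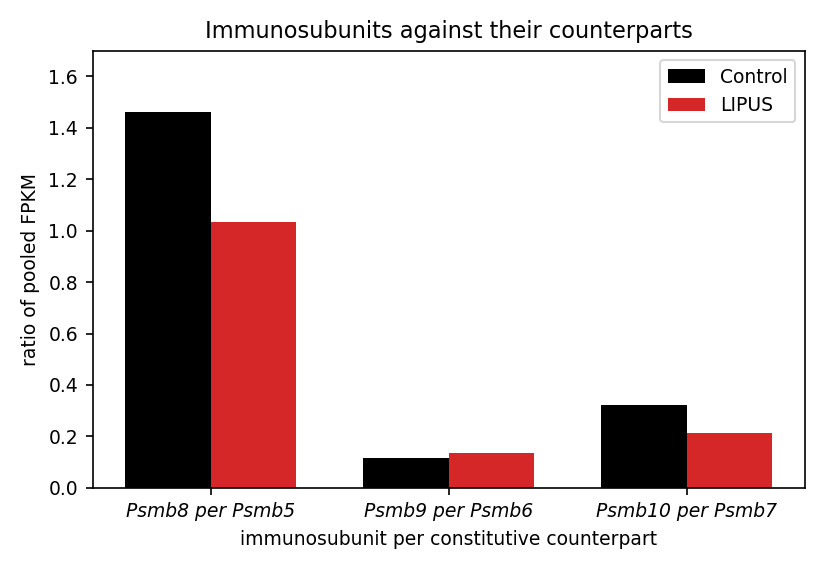
Ratio of the pooled FPKM of each immunosubunit to that of the constitutive subunit it replaces, with black bars for Control and red bars for LIPUS. Psmb8 per Psmb5 goes from 1.46 to 1.03 and Psmb10 per Psmb7 from 0.322 to 0.212, while Psmb9 per Psmb6 is 0.118 and 0.136.

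Psmb9, Tap1, Psmb8 and Tap2 lie within 34335 bases of chromosome 17, from 34181987 to 34216321. Their log2 ratios in that order were 0.32, -0.12, -0.09 and -0.43, so the neighbours did not share a direction. Tap1 per Psmb9 was 1.90 in the Control group and 1.40 in the LIPUS group, for a pair that shares the start region printed above. In GENCODE M21 their exons overlap by 212 bases on opposite strands, 5.79% of the exonic bases of Psmb9. The libraries were stranded, but whether the FPKM used the strand is not given in the sources used here. Of the other overlaps of the 10 genes, the largest was that of the antisense gene Gm19412, which covers 24.9% of the exonic bases of Tapbp. It had 0.468 FPKM in the Control group and 1.09 FPKM in the LIPUS group.

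Nlrc5 (ENSMUSG00000074151, chromosome 8, 94434356 to 94527272, plus strand) was the least abundant of the 10 genes, with 15.4 FPKM in the Control group and 17.4 FPKM in the LIPUS group, a log2 ratio of 0.17. Of 14 listed regulators of class I transcription, 12 have the status OK, of which 1 was lower and 0 higher by at least 1.5-fold, against 4.71% and 4.7% of all, with a median log2 ratio of -0.05. The number lower was 2, with Irf1, when each group was divided by its summed FPKM, against 5.7% of all, and 0 at a limit of 2-fold, against 0.945% of all. Stat2, which carries type I interferon signals to the nucleus, had 23.2 FPKM in the Control group and 12.6 FPKM in the LIPUS group (log2 ratio -0.88). It lay outside the central 95% of the table. Irf1, an interferon-induced activator of class I and immunosubunit genes, had 18.6 and 12.5 FPKM (-0.57), and Irf2 had 10.09 and 7.48 FPKM (-0.43). On the other side, Rfxap, a subunit of the RFX complex, had 19.3 and 25.6 FPKM (0.41). The subunits of the RFX and NF-Y complexes, which work with Nlrc5 at class I promoters, gave no value past 1.5-fold.

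Of 10 listed interferon ligands, receptors and signalling genes, 7 have the status OK and 1 was higher by at least 1.5-fold, against 4.7% of all, and none at 2-fold, against 1.08% of all. The gene past 1.5-fold was Socs1, a feedback inhibitor of the pathway. It had 6.71 FPKM in the Control group and 11.0 FPKM in the LIPUS group (log2 ratio 0.72). Its Control value lies barely above 6.70 FPKM, the lowest level that the higher group of any gene with status OK had. Nothing is therefore read from this count. Ifng is listed at 0 in both groups. Ifnb1 had 0.646 and 0.367 FPKM and no status OK. Among the receptors and kinases, Jak1 had 60.4 and 74.1 FPKM (0.29) and Ifnar2 58.2 and 69.7 FPKM (0.26), while Jak2 had 8.02 and 6.76 FPKM (-0.25).

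The constitutive proteasome differed little between the pooled values. Over the constitutive catalytic subunits, the other core subunits and the regulatory particle, 0 of 32 genes differed by at least 1.5-fold, 25 were higher and 7 lower by any amount, and the median log2 ratio was 0.06. Of all genes with status OK, 4.7% were higher and 4.71% lower by at least 1.5-fold, and 50.8% were higher by any amount. When each group was divided by its summed FPKM, the 32 genes came to 19 higher and 13 lower, and 43.4% of all were higher. The extremes were Psmb5 at 0.41 and Psmb4 at -0.14, and in the regulatory particle Psmd14, a deubiquitinating subunit, had 60.5 and 77.1 FPKM (0.35). The immunosubunits, from -0.55 to 0.32, spread more widely in log2 ratio than the 11 other core subunits, from -0.14 to 0.20. Psmb10 and Psmb9 set that range, and both had lower levels in each group than any of the 11. The constitutive catalytic subunits ran from 0.06 to 0.41.

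Psme1 and Psme2, the interferon-inducible subunits of the 11S activator that caps immunoproteasomes, were both on the lower side. Psme2 had 177 FPKM in the Control group and 124 FPKM in the LIPUS group (log2 ratio -0.51), and Psme1 had 117 and 86.5 FPKM (-0.44). Of 9 activator and assembly genes, 0 passed 1.5-fold (4.71% of all were lower and 4.7% higher by that much), 3 were lower by the 25% limit (Psme2, Psme1 and the assembly chaperone Psmg4) and 0 were higher by that much, against 13.4% lower and 13.6% higher of all genes with status OK.

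Of 7 other factors of peptide trimming and loading, 1 was lower by at least 1.5-fold, against 4.71% of all. Erap1, the aminopeptidase that trims peptides in the endoplasmic reticulum, had 37.8 FPKM in the Control group and 18.6 FPKM in the LIPUS group. Its log2 ratio of -1.03 was more negative than that of any of the 10 genes. The general chaperones of the endoplasmic reticulum in this list, among them Hspa5 at 513 and 585 FPKM (0.19), gave no value past the 25% limit. Tapbpl, a relative of tapasin that edits peptides, had 8.67 and 7.35 FPKM (-0.24).

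**Figure D4:**
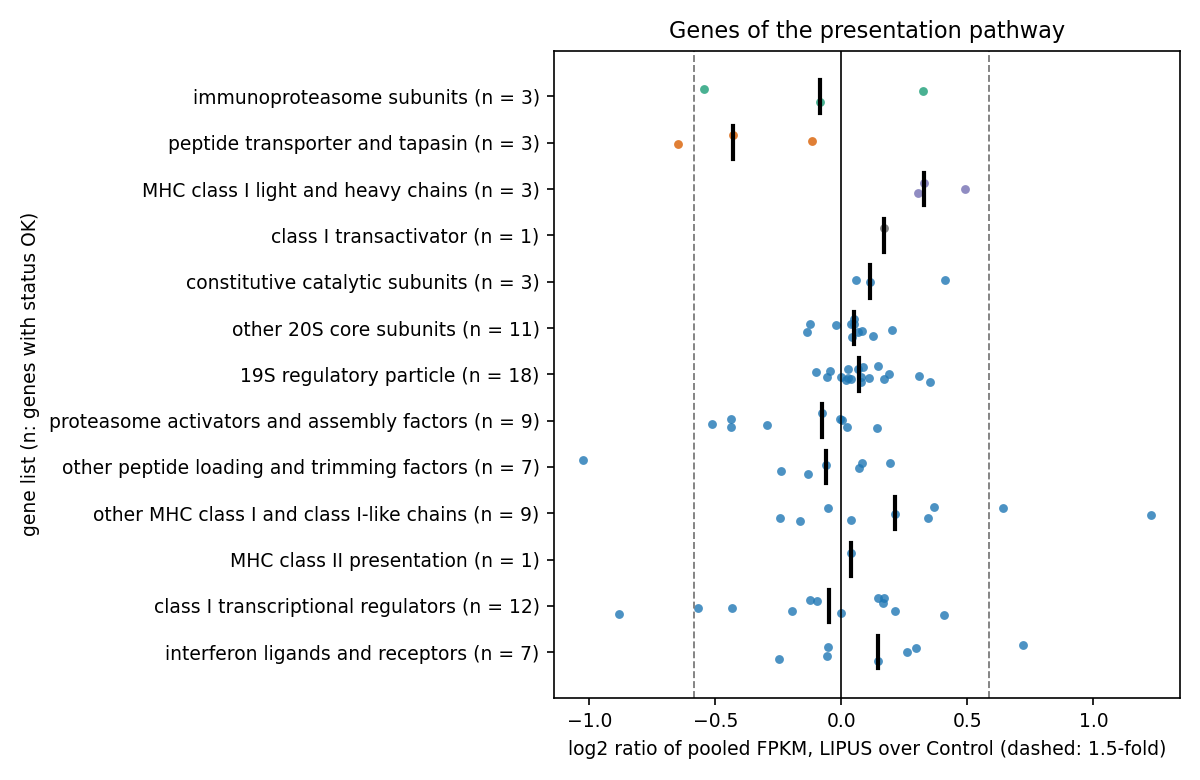
Log2 ratio of the pooled FPKM, LIPUS over Control, for each gene with status OK in the lists of the pathway, with black lines at the medians and dashed lines at 1.5-fold. Tapasin, Erap1 and Stat2 lie left of the dashed line, H2-Q6, H2-T10 and Socs1 right of it, and the core and regulatory subunits of the proteasome stay between the lines.

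Beyond H2-K1 and H2-D1, 21 other class I and class I-like chains were listed, of which 7 are at 0 in both groups and 9 have the status OK. Among these 9, H2-Q6 and H2-T10 were past 1.5-fold. Both have Control values under 6.70 FPKM, the lowest level that the higher group of any gene with status OK had, so that nothing is read from their number. H2-Q4 had 117 and 151 FPKM (0.37). H2-Q6 had 5.11 and 12.0 FPKM (1.23), H2-T10 had 4.81 and 7.50 FPKM (0.64) and H2-Q7 had 9.42 and 11.96 FPKM (0.34). The values of H2-Q6, H2-T10 and H2-Q7 are low, so each is uncertain. How much sequence they and H2-Q4 share with each other was not measured. H2-T22 had 155 and 138 FPKM (-0.17), H2-T23 80.5 and 77.6 FPKM (-0.05) and Hfe 17.2 and 14.6 FPKM (-0.24), and H2-T24, without status OK, had 2.56 and 1.18 FPKM. With B2m, H2-K1 and H2-D1, and whatever their status, 17 chains are above 0 in a group, of which 11 were higher and 6 lower by any amount, against 49.3% higher of the 16476 genes above 0. With division by the summed FPKM, 10 of the 17 were higher, against 44.6% of all. The chains are not independent of each other, since several share stretches of sequence.

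The class II pathway, which serves professional antigen-presenting cells, was mostly listed at 0. Of 11 genes, 7 are listed at 0 in both groups, among them Ciita, H2-Aa, H2-Ab1 and H2-Eb1. Only H2-DMb1 has the status OK, with 18.3 and 18.7 FPKM (log2 ratio 0.04).

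The label of the cells was checked against marker genes. Of 10 markers of the osteocyte and osteoblast lineage, 6 have the status OK, including Spp1, Col1a1, Pdpn and Gja1, while Sost and Mepe are listed at 0 in both groups. A value listed at 0 in this table does not show that a transcript was absent. Of the 6, Dmp1 had 3.04 FPKM in the Control group and 7.65 FPKM in the LIPUS group (log2 ratio 1.33), and Alpl had 293 and 190 FPKM (-0.63), the only ones past 1.5-fold, against 4.7% higher and 4.71% lower of all genes. The Control value of Dmp1 lies under the lowest level of 6.70 FPKM named above. Their part in the class I values was not tested. Of 11 markers of immune cells, 8 are listed at 0 in both groups, Ptprc, Cd3e, Itgam and Adgre1 among them. The summed level of the 11 was 2.25 FPKM in the Control group and 1.11 FPKM in the LIPUS group, most of it Lyz2 in the Control group (2.01 FPKM), and none had the status OK. In RNA of whole cultures, fewer cells with a transcript and less of it per cell cannot be told apart.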

How the data were processed

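RNA-seq of MLO-Y4 cells, 3 LIPUS and 3 Control cultures, was analysed from a single table of the comparison. Per the methods and the labels, Trimmomatic 0.36 served for trimming and TopHat2 2.1.0 with Bowtie2 2.2.6.0 for alignment (GRCm38), and the authors took FPKM from Cufflinks on Ensembl transcripts. The processing notes in the labels name Cufflinks 2.1.1, and the methods name another version. The authors deposited 1 FPKM per gene and group, pooled over the libraries, so the depth of each library is unknown here. Their fold change, test statistic, p-value, q-value and call columns were not used. The column status was used only to tell which genes were abundant enough to compare.

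Values of LIPUS were divided by those of Control with no pseudocount, and log2 was taken. A difference counted as called at 1.5-fold, a limit of size and not a test. The members, the gene lists and the limit were chosen with earlier results of these data known. Named beside the members are their constitutive counterparts, at most 4 genes per list with the largest absolute log2 ratio, and genes quoted as a reference or listed at 0. H2-T22, H2-T23, H2-T24, Hfe, Ifnb1 and Lyz2 were chosen after their values were seen. Of the ratios between genes, only those of each immunosubunit to its constitutive counterpart were planned. The alternatives were pseudocounts of 1 and 0.1 FPKM, 2 other scalings, limits of 25% and 2-fold, and other minimum levels.

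Gene positions came from GENCODE M21, upstream sequences from RefSeq (GRCm38.p6), and 100-base windows from the GENCODE transcripts. A planned comparison of protein sequences was not made, and some genes of the lists are not reported here. Python 3.11.15, numpy 2.4.6, pandas 2.3.3 and matplotlib 3.10.9 were used. The fold count was tested on Control values with planted 2-fold changes. The motif and shared-run searches were tested on made-up sequence with planted matches, and the other steps were not tested in this way.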

Additional observations from a re-analysis of the deposited data

How the results depend on the processing

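The pooled values hold no replicate error, so none of the differences could be set against the spread between cultures, and leaving out a culture was not possible. No paired analysis was possible because the table has no value for a single culture. The log2 ratios of the 10 genes kept their sign under both pseudocounts and both scalings (40 values), and moved by at most 0.05. Their median, 0.04, was -0.00429 when each group was divided by its summed FPKM, so its sign is not settled, and it lay between 0.0369 and 0.0414 under the other alternatives. The number of genes lower by at least 1.5-fold, which is 1, became 3 at the limit of 25% and 0 at 2-fold. It became 2 when each group was divided by its summed FPKM, which brought Psmb10 past the limit. With that division, 5.7% of all genes with status OK were lower by at least 1.5-fold, against 4.71% without it. The number higher, which is 0, became 3 at the 25% limit. Over all genes above 0 FPKM in both groups, in place of those with status OK, 11.8% were lower and 11.0% higher by at least 1.5-fold, and over genes with at least 1 FPKM in a group, 9.59% and 9.25%. Of counts by any amount, recomputed under both scalings after seeing the data, only that of the constitutive proteasome genes on the lower side moved by over 1.5 times (7 to 13, with division by the summed FPKM). With a pseudocount of 1 FPKM, H2-Q6 moved from 1.23 to 1.09 and Dmp1 from 1.33 to 1.10 on the log2 scale, and the number of other class I chains higher by at least 1.5-fold went from 2 to 1.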

Other observations

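The interval from H2-K1 to H2-D1 on chromosome 17 (33996017 to 35267499) holds 134 genes of the table, of which 40 have the status OK. Of these, 5 were higher and 0 lower by at least 1.5-fold, and the median log2 ratio was 0.09, with 25 genes higher and 15 lower by any amount. Of all genes with status OK, 4.7% were higher and 4.71% lower by at least 1.5-fold, and 50.8% were higher by any amount. The 5 genes were looked up after their values were seen. They include the complement genes C4b, with 7.60 FPKM in the Control group and 14.6 FPKM in the LIPUS group (log2 ratio 0.95), and Cfb, with 69.5 and 129 FPKM (0.89). The others were H2-Ke6 (6.80 and 12.1 FPKM), Ddah2 (7.02 and 11.1 FPKM) and Fkbpl (3.35 and 7.51 FPKM). The Control value of Fkbpl lies under 6.70 FPKM, the lowest level that the higher group of any gene with status OK had. Those of H2-Ke6, Ddah2 and C4b lie close above that level, so nothing is read from the number of genes higher. None of the 5 genes belongs to the class I pathway.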
